A study of Mus musculus with 10 samples.

Results

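Grb10, Cdkn1c, Phlda2 and Igf2r are maternally expressed imprinted genes whose products restrain growth. They were taken by name, 4 of the 30419 genes in the files. The set was selected on the genes' input coverage in knockout (KO) and wild-type (WT) libraries, with those values already known, so that their KO against WT input values are given as a description with no test. The libraries came from J1 mouse embryonic stem cells, an established line grown without feeder cells, whose fragmented RNA was sequenced either as input or after immunoprecipitation (IP) with an antibody against N6-methyladenosine (m6A). The KO group (Mettl3 KO) and the WT group (Mettl3 WT) had 2 input and IP pairs each, and a first pair of libraries carried no genotype label. The labels state neither how Mettl3 was disrupted nor whether replicates were separate cultures or clones, so the p-values below rest on the spread within library pairs that could be technical repeats. The culture protocol in the labels also mentions differentiation without LIF, but no library is labelled as differentiated.

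At an imprinted gene the copies inherited from the mother and the father carry different DNA methylation marks, and usually only one of them is transcribed. Maternally expressed genes of this kind limit fetal and placental growth. Several paternally expressed genes promote it, among them the gene for insulin-like growth factor 2 (Igf2). Grb10 is an adaptor that binds active insulin and IGF receptors and damps their signal. Igf2r, the mannose 6-phosphate receptor, captures Igf2 at the cell surface and carries it to the lysosome. Cdkn1c inhibits cyclin-dependent kinases, and Phlda2, a small protein with a pleckstrin homology domain, limits the growth of the placenta. Mettl3 is the catalytic subunit of the complex that forms most m6A in messenger RNA, and the mark is known to gather near stop codons and in long last exons.

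The start-site sequences are shown because imprinted genes are classed by the methylation of CG-rich DNA, which these RNA libraries do not measure. Each runs from 250 bases before to 50 bases after a RefSeq start site of GRCm38.p6, 5′ to 3′ on the gene's strand, and capitals mark every CG. Grb10 has 2 entries in this table, Phlda2 and Igf2r have 1 each, and all lie on the minus strand.
Grb10 (chr11:12037371-12037670): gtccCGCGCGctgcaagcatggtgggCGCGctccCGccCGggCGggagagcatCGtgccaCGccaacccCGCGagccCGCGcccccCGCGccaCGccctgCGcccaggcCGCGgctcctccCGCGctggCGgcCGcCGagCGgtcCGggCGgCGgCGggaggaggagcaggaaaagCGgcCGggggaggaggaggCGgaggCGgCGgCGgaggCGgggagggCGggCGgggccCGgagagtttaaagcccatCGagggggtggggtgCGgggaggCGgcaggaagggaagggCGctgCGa
Phlda2 (chr7:143502475-143502774): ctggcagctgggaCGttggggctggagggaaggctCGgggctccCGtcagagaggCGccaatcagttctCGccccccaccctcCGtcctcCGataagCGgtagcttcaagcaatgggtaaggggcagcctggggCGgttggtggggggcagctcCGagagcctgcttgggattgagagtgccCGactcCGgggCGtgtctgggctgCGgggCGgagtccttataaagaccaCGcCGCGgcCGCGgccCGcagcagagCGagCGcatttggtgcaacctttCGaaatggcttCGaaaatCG
Igf2r (chr17:12769657-12769956): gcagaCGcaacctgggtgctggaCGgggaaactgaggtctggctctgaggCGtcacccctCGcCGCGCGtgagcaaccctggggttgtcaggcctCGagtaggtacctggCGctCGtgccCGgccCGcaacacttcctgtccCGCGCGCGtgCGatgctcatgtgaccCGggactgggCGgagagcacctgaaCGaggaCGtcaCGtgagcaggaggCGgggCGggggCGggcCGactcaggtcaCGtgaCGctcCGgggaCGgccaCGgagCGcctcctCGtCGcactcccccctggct
The windows held 45 CG in Grb10, 26 in Phlda2 and 34 in Igf2r, against a median of 7 over the 32544 start-site windows of the table. The other Grb10 entry, chr11:12027922-12028221, held 9. The motif TATAAA was found on either strand in 13.6% of all windows and among the 4 windows only in that of Phlda2, from its base 221. The motif GGGCGG was found in 35.9% of all windows, with 4 matches in the first Grb10 window, 2 in Phlda2, 3 in Igf2r and 0 in the other Grb10 window. These files cover m6A and RNA levels only, so the letters are context and no result turns on them.

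Levels are the mean coverage per exon window of a gene, on the authors' scale, and are therefore per length of exon. The depth that the coverage steps imply, relative to the first input, was 0.516 and 0.284 in the KO inputs and 0.438 and 0.457 in the WT inputs. On the same measure the IPs stood at 0.0644 and 0.0606 (KO) and 0.159 and 0.0712 (WT) relative to the first IP, so the IP tracks of low genes were sparse. Mettl3 itself had 3.14 and 3.38 in the KO inputs, against 4.79 and 4.67 in the WT inputs, a log2 difference of -0.43 (SE 0.07, limma adjusted p = 0.00259). Its coverage was thus lower in KO without being lost. Both KO inputs lay below both WT inputs in 27 of its 47 windows, and the labels do not say which exons the knockout removes. The 8 stem cell markers summed to 2182 and 2045 in the KO inputs and to 2691 and 2771 in the WT inputs. Their sum in the first input was 2380. Dppa5a alone gave 1121 and 1029 in KO, 1525 and 1539 in WT and 836 in the first input. Of the 8 markers, 1 (Utf1) was called higher in KO and 3 (Tdgf1, Dppa5a and Nanog) were called lower. The 11 markers of differentiated lineages summed to at most 2.33 in any KO or WT input and to 6.46 in the first input. The 7 fibroblast markers summed to at most 2.94 and to 8.88, of which Thy1 alone gave 2.75 and 7.85. The part of depth and of these marker levels in the values below was not tested.

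Across the 11211 genes that passed the filter on low coverage, 1455 (13%) rose and 1522 (13.6%) fell in KO at a limma adjusted p under 0.05. Without WT replicate 1 these counts were 759 and 984, and without WT replicate 2 the fallen genes numbered 822. The contrast that chose the 4 genes is the same one, so these shares are printed as a scale only. All 4 genes passed the filter, and ordered by log2 difference from the lowest they held ranks 1 (Grb10), 3 (Cdkn1c), 436 (Phlda2) and 2941 (Igf2r). Fewer cells that express a gene and less RNA per cell cannot be told apart in these bulk libraries.

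**Figure D1:**
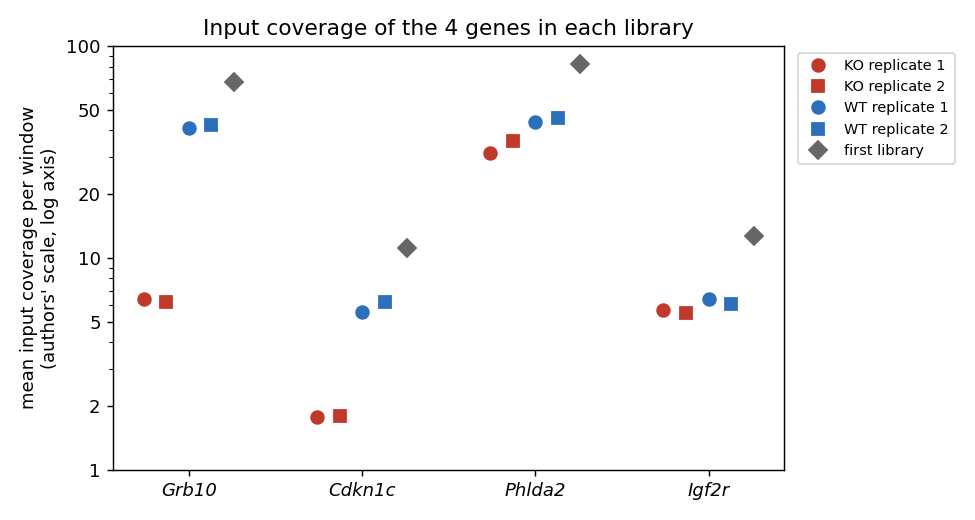
Mean input coverage per window (authors' scale, log axis) of Grb10, Cdkn1c, Phlda2 and Igf2r in each library, with circles and squares for replicates 1 and 2 of KO (red) and WT (blue) and a diamond for the first input. The KO points of Grb10 lie at 6.38 and 6.19 and its WT points at 41.0 and 42.5, while those of Igf2r lie between 5.51 and 6.39.

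Grb10 had the largest difference. Its input coverage was 6.38 and 6.19 in KO, 41.0 and 42.5 in WT, and 67.6 in the first input. The KO mean of 6.29 ± 0.137 was 15.1% of the WT mean of 41.8 ± 1.02 (SD, n = 2 each), a log2 difference of -2.55 on the log2(coverage + 1) scale. Both KO inputs lay below both WT inputs in 113 of 113 windows. Of its 18 exons, 17 had a coverage of at least 1 in at least 2 of the 4 libraries, and in all 17 the KO inputs lay below the WT inputs, with KO at 7.58% to 20.7% of WT and a median exon at 14.0%. Over all genes, 26% of 106796 exons that passed the same filter had both KO inputs below both WT inputs. No such share was computed over windows, nor for exons with KO above WT, so those counts are description only. Exons of a gene share their transcripts and libraries and are not replicates.

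The long exon 1 of Grb10, with 63 of the gene's 113 windows, had 9.70 and 9.13 in the KO inputs, 59.1 and 63.1 in the WT inputs and 89.0 in the first input. Exon 6 stood closest to WT, with 2.31 and 2.93 in KO against 13.8 and 11.5 in WT. Exon 18, at the other end of the numbering, stood furthest from it, with 0.565 and 1.02 in KO against 12.9 and 7.95 in WT. The lower coverage was not limited to some of the covered exons of Grb10. Exon 17 stayed under the filter, at 0 in both KO inputs and at 0.109 and 0.609 in the WT inputs.

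The first input, a single library of the deposited set with no genotype label, did not follow the WT profile along Grb10. It had 9.65 in exon 7, where the WT inputs had 35.1 and 30.5, and 92.9 in exon 13, where the WT inputs had 17.9 and 20.7. Over the 17 covered exons its coverage ran from 0.294 to 7.05 times the WT mean, with a median of 2.15. For the whole gene the first input stood at 1.62 times the WT mean, beside a median of 1.49 and quartiles of 1.02 and 2.08 over all genes tested. The corresponding values were 1.89 times for Cdkn1c, 1.85 times for Phlda2 and 2.03 times for Igf2r. With 1 library there is no test of these differences.

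Cdkn1c, the kinase inhibitor, was the other gene with a large difference, at a much lower level. Its input coverage was 1.78 and 1.80 in KO, 5.53 and 6.19 in WT, and 11.1 in the first input. The KO mean of 1.79 ± 0.0130 was 30.5% of the WT mean of 5.86 ± 0.463 (SD, n = 2 each), a log2 difference of -1.30. Both KO inputs lay below both WT inputs in 38 of its 40 windows and in the 3 of its 4 exons that passed the filter. Those 3 exons were close to each other, with KO at 27.3% to 31.1% of WT. Exon 1 had 3.62 and 3.43 in KO against 10.7 and 12.4 in WT, and exon 3, with 19 windows, had 0.822 and 0.997 in KO against 2.92 and 2.92 in WT. Exon 3 passed the filter through the WT inputs alone, which fixed its direction in advance. The low exon 4 had 0.470 and 0.475 in KO against 0.852 and 1.82 in WT. The groups did not overlap in any of the 4 exons of Cdkn1c.

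Phlda2, on chromosome 7 as Cdkn1c is, had the highest input coverage of the 4 genes in KO. Its coverage was 31.4 and 35.5 in KO, 43.8 and 45.8 in WT, and 82.8 in the first input. The KO mean of 33.5 ± 2.91 was 74.7% of the WT mean of 44.8 ± 1.41 (SD, n = 2 each), a log2 difference of -0.41. Both KO inputs lay below both WT inputs in 14 of 16 windows. Exon 2 separated the groups, with 33.5 and 35.1 in KO against 48.7 and 46.0 in WT. Exon 1 did not, with 27.9 and 36.2 in KO against 35.7 and 45.5 in WT.

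Igf2r, the Igf2 scavenger, differed least. Its input coverage was 5.70 and 5.51 in KO, 6.39 and 6.09 in WT, and 12.7 in the first input. The KO mean of 5.61 ± 0.133 was 89.9% of the WT mean of 6.24 ± 0.215 (SD, n = 2 each), a log2 difference of -0.13, and the groups did not overlap. The exons did not share 1 direction: of 48, both KO inputs lay below both WT inputs in 17 and above them in 4, and 27 overlapped. Exon 41 had 3.05 and 4.37 in KO against 2.68 and 1.68 in WT, whereas exon 23 had 1.17 and 1.59 in KO against 3.41 and 2.50 in WT. Its long exon 1, with 35 of 200 windows, had 13.2 and 11.7 in KO against 13.4 and 13.9 in WT. By windows, 50 of the 200 had both KO inputs below both WT inputs and 14 had them above. The antisense transcript Airn, which overlaps Igf2r, had 0.0113 and 0.0118 in the KO inputs against 0.00598 and 0.0278 in the WT inputs. Whether coverage was kept apart by strand is not given in the sources used here.

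**Figure D2:**
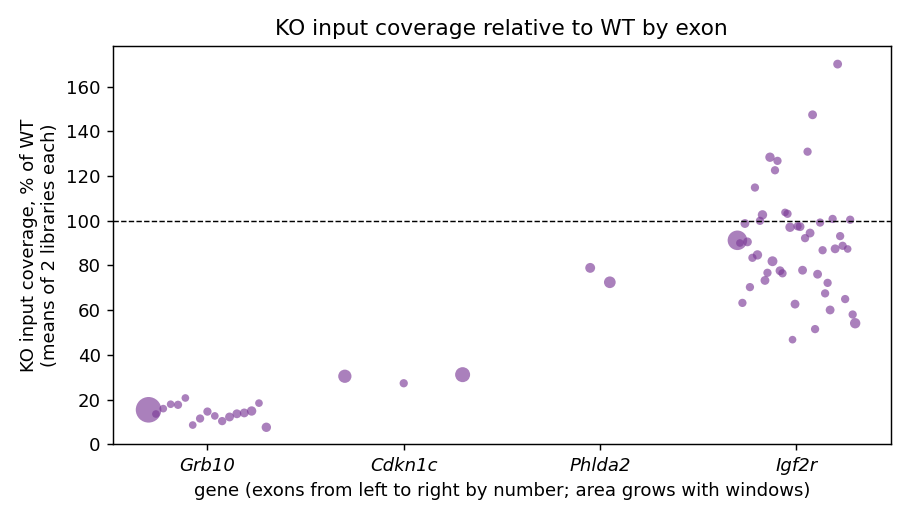
Mean KO input coverage as a percentage of the mean WT input coverage for each exon with a coverage of at least 1 in at least 2 of the 4 libraries, with exons in number order within a gene and the point area growing with the number of windows. The Grb10 exons lie between 7.58% and 20.7%, the Cdkn1c exons between 27.3% and 31.1%, and the Igf2r exons on both sides of the dashed line at 100%, between 46.8% and 170%.

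In KO the order of the 4 levels was Phlda2, Grb10, Igf2r and Cdkn1c, with Grb10 at 6.19 or more and Igf2r at 5.70 or less, and no pair of genes overlapped. In WT it was Phlda2, Grb10, Igf2r and Cdkn1c as well, but Grb10, at 42.5 or less, stood just under Phlda2, at 43.8 or more, and Igf2r at 6.09 and 6.39 overlapped Cdkn1c at 5.53 and 6.19. Grb10 thus stood beside Igf2r in KO and beside Phlda2 in WT. The first input kept the same order, at 82.8, 67.6, 12.7 and 11.1. The genes whose centred profile over the 5 inputs was most like that of Grb10 were Cdkn1c, Jam2 and Guca1a, with a root mean square difference of 0.596, 0.720 and 0.742 (log2). For Cdkn1c they were Igsf21 (0.168), Ndrg2 (0.188) and Guca1a (0.193). Phlda2 was closest to Upp1 (0.0512), 2610301G19Rik (0.0530) and Acp6 (0.0538), and Igf2r to Akap1 (0.00738), Kif5a (0.0155) and Baz1b (0.0205). Jam2, a junctional adhesion molecule, had 5.91 and 6.07 in KO against 15.0 and 15.0 in WT.

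IP enrichment was read from the winscore, the authors' log2 score of a window's IP over input. In it each coverage plus 1 is first divided by its median over the gene plus 1. A region was defined in the first IP alone, which belongs to neither group, as an unbroken run of 2 or more windows that each scored 2 or higher. Of 11306 genes with a mean WT RPKM of at least 1, 6136 (54.3%) held 10181 regions, with a median of 4 windows. Grb10 and Igf2r each held 1 region, both in exon 1, and Cdkn1c and Phlda2 held none. Exon 1 had more windows than the last-numbered exon in 92.5% of 6666 genes on the minus strand and in 7.58% of 6660 on the plus strand, the pattern that numbering by chromosome coordinate gives. On that reading exon 1 is the 3′ end exon of Grb10, Igf2r and Phlda2, which are on the minus strand.

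The Grb10 region covered windows 51 to 59 of the 63 in exon 1. Its mean winscore was 4.91 and 4.45 in the KO pairs, 4.64 and 5.0 in the WT pairs and 3.15 in the first pair. The KO values of 4.68 ± 0.322 overlapped the WT values of 4.82 ± 0.256 (SD, n = 2 each), with a difference of -0.14 (SE 0.54). This difference is given with no test, because the input enters the winscore. The highest window was number 55 or 56 in the KO pairs and 57 or 56 in the WT pairs, with a winscore of 6.84 and 5.77 in KO against 6.0 and 6.46 in WT. In the first IP it was window 53, at 4.11. At the edges, the first IP had a winscore of 2.80 in window 51 and 0.384 in window 50, and 2.01 in window 59 and 0.0551 in window 60.

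IP coverage and input coverage at Grb10 were both lower in KO than in WT. In the region, IP coverage was 76.5 and 46.8 in KO, 356 and 361 in WT, and 430 in the first IP, while input coverage was 7.34 and 8.48 in KO, 41.4 and 43.6 in WT, and 118 in the first input. Over the whole gene the IP coverage was 8.17 and 4.38 in KO, against 38.1 and 36.7 in WT. The region held 74.5% and 85.2% of the gene's IP coverage in KO and 74.4% and 78.4% in WT, from 7.96% of its windows. It held 9.16% and 10.9% of the input coverage in KO and 8.03% and 8.18% in WT. In all genes with regions, the regions held a median of 54.9% and 54.7% of the gene's IP coverage in KO and 59.1% and 59.8% in WT.

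The log2 ratio of IP to input in the Grb10 region, centred on each library's median outside regions, was 4.22 and 3.28 in KO, 4.04 and 4.14 in WT, and 2.77 in the first pair. The values overlapped, and the mean difference of -0.34 is given with no test, because the input enters the ratio. It was -0.81 without KO replicate 1 and 0.13 without KO replicate 2, so its sign rested on 1 library. Over 9603 regions the same ratio had a median difference of -0.45. Many Grb10 windows were empty in the KO IPs: 74 and 66 of its 113 had an IP coverage of 0, against 2 and 17 in WT. Over all windows of all genes, expressed or not, 74.3% and 67.6% were at 0 in the KO IPs. In the WT IPs these shares were 50.5% and 65.4%. The gene's median IP coverage was 0 in both KO IPs, against 8.99 and 5.70 in WT. This median plus 1 divides the IP in the winscore, so the added 1 alone was the divisor in KO. The KO and WT winscores of Grb10 thus rest on unlike divisors. Scattered windows of KO replicate 1, such as window 40 at 4.93, had a winscore above 2 where KO replicate 2 had 0.680, and only 8 of the 113 windows reached 2 in all 4 KO and WT pairs.

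**Figure D3:**
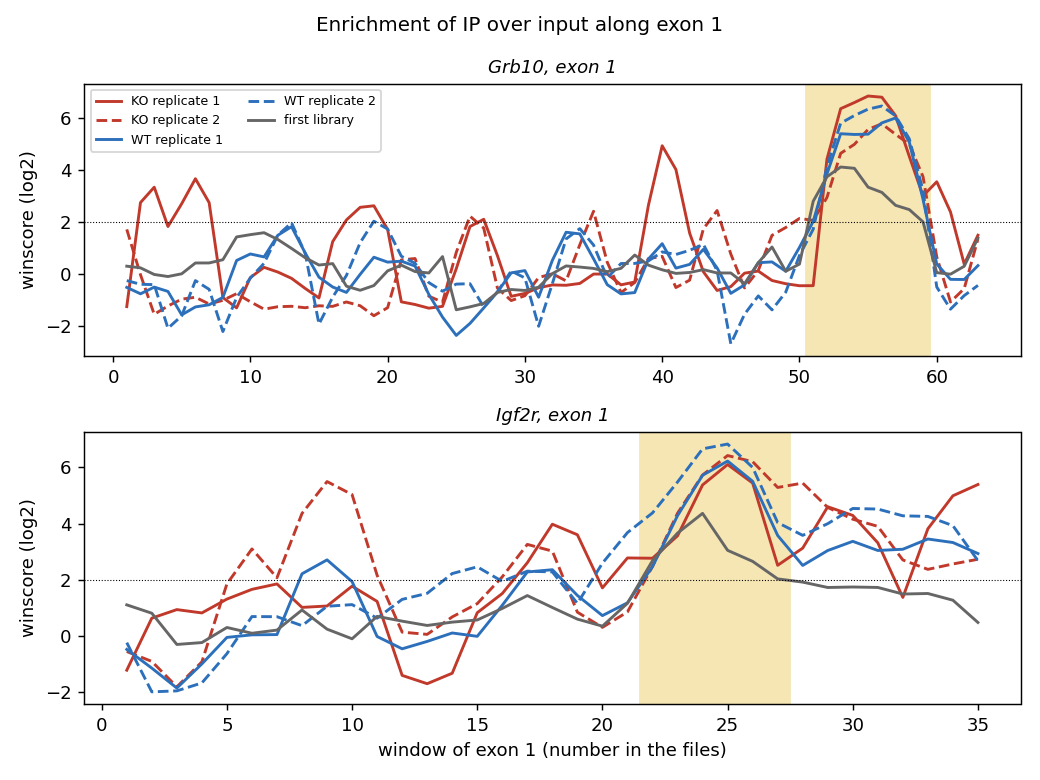
Winscore (log2) of each window of exon 1 of Grb10 (top) and Igf2r (bottom) in the KO (red), WT (blue) and first (grey) pairs, with solid and dashed lines for replicates 1 and 2, the shaded band marking the region chosen in the first IP and the dotted line a winscore of 2. In the shaded Grb10 band the KO and WT lines peak between 5.77 and 6.84, and other peaks appear in single KO libraries.

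The Igf2r region covered windows 22 to 27 of the 35 in exon 1. Its mean winscore was 4.30 and 5.08 in the KO pairs, 4.63 and 5.56 in the WT pairs and 3.08 in the first pair. The KO mean of 4.69 ± 0.555 and the WT mean of 5.10 ± 0.660 (SD, n = 2 each) differed by -0.41 (SE 0.59), given with no test, and the groups overlapped. Window 25 was the highest in all 4 KO and WT pairs, with 6.10 and 6.42 in KO against 6.22 and 6.83 in WT. In the first IP window 24 was the highest, at 4.37. The first IP passed the threshold narrowly at one edge, with 2.04 in window 27 and 1.92 in window 28, and had 2.68 in window 22 and 1.17 in window 21. Over the gene, 17 of the 200 windows reached 2 in all 4 KO and WT pairs, and some lay in exon 1 outside the region. Window 29, for example, had 4.60 and 4.58 in KO, 3.05 and 4.0 in WT and 1.73 in the first pair.

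IP coverage in the Igf2r region was lower in KO at nearly the same input. It was 78.3 and 110 in the KO IPs, 174 and 148 in the WT IPs and 103 in the first IP, beside an input coverage of 13.2 and 11.97 in KO, 14.2 and 12.6 in WT, and 32.9 in the first input. The region held 47.7% and 49.7% of the gene's IP coverage in KO and 63.7% and 64.6% in WT, from 3.0% of its windows, so the groups did not overlap. In all genes with regions the median share was also lower in KO, at 54.9% and 54.7% against 59.1% and 59.8% in WT. The log2 ratio of IP to input was 3.48 and 4.04 in KO, 4.49 and 4.57 in WT, and 2.53 in the first pair. The groups did not overlap here either, with a mean difference of -0.77 that is given with no test. That difference was -0.49 without KO replicate 1 and -1.05 without KO replicate 2. Over 9603 regions the median difference of the ratio was -0.45, and 77.8% were lower in KO. How many other regions separated the groups was not computed. The median IP coverage of Igf2r was 0 in both KO IPs and in WT replicate 2. Of its 200 windows, 131 and 109 were at 0 in the KO IPs against 31 and 110 in the WT IPs. The shares over all windows are those given for Grb10.

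**Figure D4:**
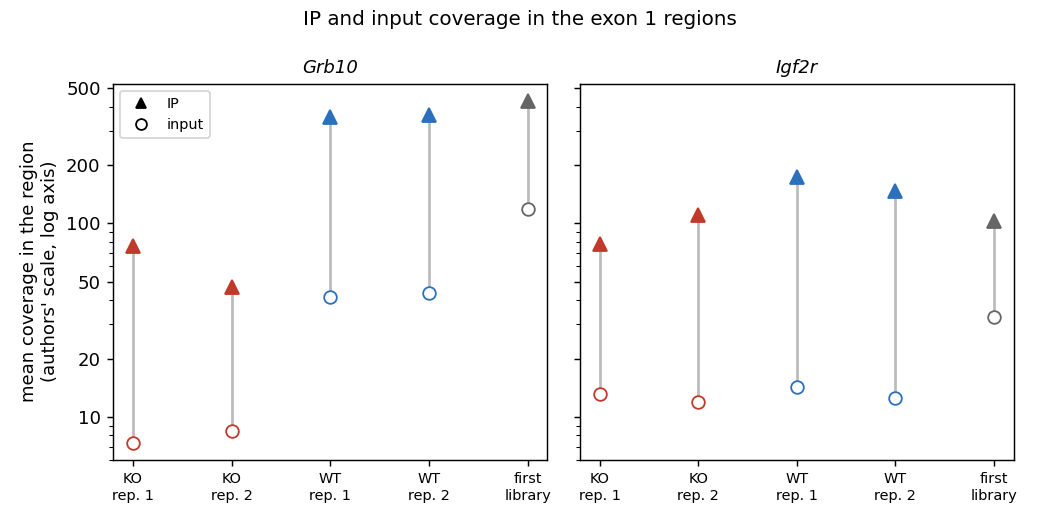
Mean IP coverage (triangles) and mean input coverage (circles) of the exon 1 regions of Grb10 and Igf2r in each KO, WT and first pair (authors' scale, log axis), joined by a line whose length is the ratio. In Grb10 both IP and input are lower in KO, with IP at 76.5 and 46.8 against 356 and 361 in WT, and in Igf2r the inputs lie between 11.97 and 14.2 while IP is 78.3 and 110 in KO against 174 and 148 in WT.

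No region of any gene was called for a different winscore: 0 of 10181 (0%) had a limma adjusted p under 0.05, with 842 at an unadjusted p under 0.05. The median difference of winscore over all regions was -0.08, and 54.3% were lower in KO. The ratio of IP to input likewise gave 0 calls by limma in 9603 regions, with 1598 at an unadjusted p under 0.05 and 77.8% lower in KO. Each measure sets a region against other windows of its own library, so a change shared by both would not show. With 2 pairs per group and sparse IPs, the 0 calls do not show that m6A in the regions was unchanged. With a KO library left out, the fit holds 1 KO library and measures no spread in KO, so its region calls are not read as results.

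Cdkn1c and Phlda2 had no window with a winscore of 2 in the first IP, where their highest values were 1.38 and 1.96. The highest winscore of Cdkn1c was 5.23 and 3.98 in KO against 1.49 and 2.40 in WT. No window of Cdkn1c reached 2 in both libraries of either group. Its IP coverage over the gene was 2.93 and 1.37 in KO against 7.40 and 6.31 in WT. Of its 40 windows, 22 and 24 were at 0 in the KO IPs, against 1 and 6 in WT, beside the shares over all windows given for Grb10. Phlda2 was covered in every window of every IP, with 12.3 and 18.8 in KO, 19.3 and 15.2 in WT, and 40.4 in the first IP. Its highest winscore was 2.91 and 1.92 in KO against 1.39 and 1.09 in WT. The KO IP values of Phlda2 overlapped the WT ones, and those of Cdkn1c did not. Outside exon 1, Igf2r had a further stretch in exon 48, the last in number, whose 7 windows had a mean winscore of 2.49 and 4.09 in KO, 1.68 and 4.21 in WT and 0.36 in the first pair. Its input coverage there was only 1.06 and 0.557 in KO and 1.78 and 1.22 in WT, and replicates 2 of both groups were the higher ones.

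The other imprinted genes were set beside these 4. As a scale for the lists, 13% of all genes tested rose and 13.6% fell. Of 30 other maternally expressed imprinted genes, 15 were measured, of which 5 rose and 2 fell in KO and 8 did not pass, with a median log2 difference of -0.02 beside -0.005 over all genes tested. The 3 noncoding RNAs of the Dlk1 to Dio3 cluster rose: Rian had 35.2 and 38.9 in KO against 25.3 and 26.4 in WT (log2 0.50), Mirg rose by 0.49 and Meg3 by 0.37. Tssc4 rose by 0.25 and Commd1 by 0.22. H19, the noncoding RNA beside Igf2, fell by 0.41 and Ascl2, a transcription factor of the placenta, fell by 0.32. Ascl2 reached the filter's minimum in the WT inputs alone, which fixed its direction in advance. The count of falls was 1 without WT replicate 1 and 0 without WT replicate 2, and that of rises was 3 without WT replicate 1, WT replicate 2 or KO replicate 2. Cd81, with 58.9 and 65.2 in KO against 69.3 and 72.2 in WT, was the highest of those that did not pass.

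Of 30 paternally expressed imprinted genes, 29 were in the files and 20 were measured, of which 14 rose, 3 fell and 3 did not pass, with a median log2 difference of 0.42. Peg10, a retrotransposon-derived gene needed in the placenta, had 49.1 and 47.8 in KO against 13.7 and 14.8 in WT (log2 1.70, SE 0.07, limma adjusted p = 1.26e-06). Nnat, a small membrane protein gene, had 12.7 and 13.7 in KO against 3.76 and 4.01 in WT, and rose by 1.54. Snrpn and Snurf, which share transcripts and cannot be counted apart here, rose by 1.20 and 1.21 and are both among the 14. Mcts2, a retrogene with a close copy on another chromosome, rose by 1.63, and Plagl1, a zinc finger gene, by 1.36. Plagl1 and Sgce, both among the 14, reached the filter's minimum in the KO inputs alone, which fixed their direction in advance. The 3 that fell were Gab1 (-0.41), Slc38a4 (-0.22) and Peg3 (-0.21), and the count was 1 without WT replicate 1, WT replicate 2 or KO replicate 1. Mest, Mkrn3 and Nespas did not pass.

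**Figure D5:**
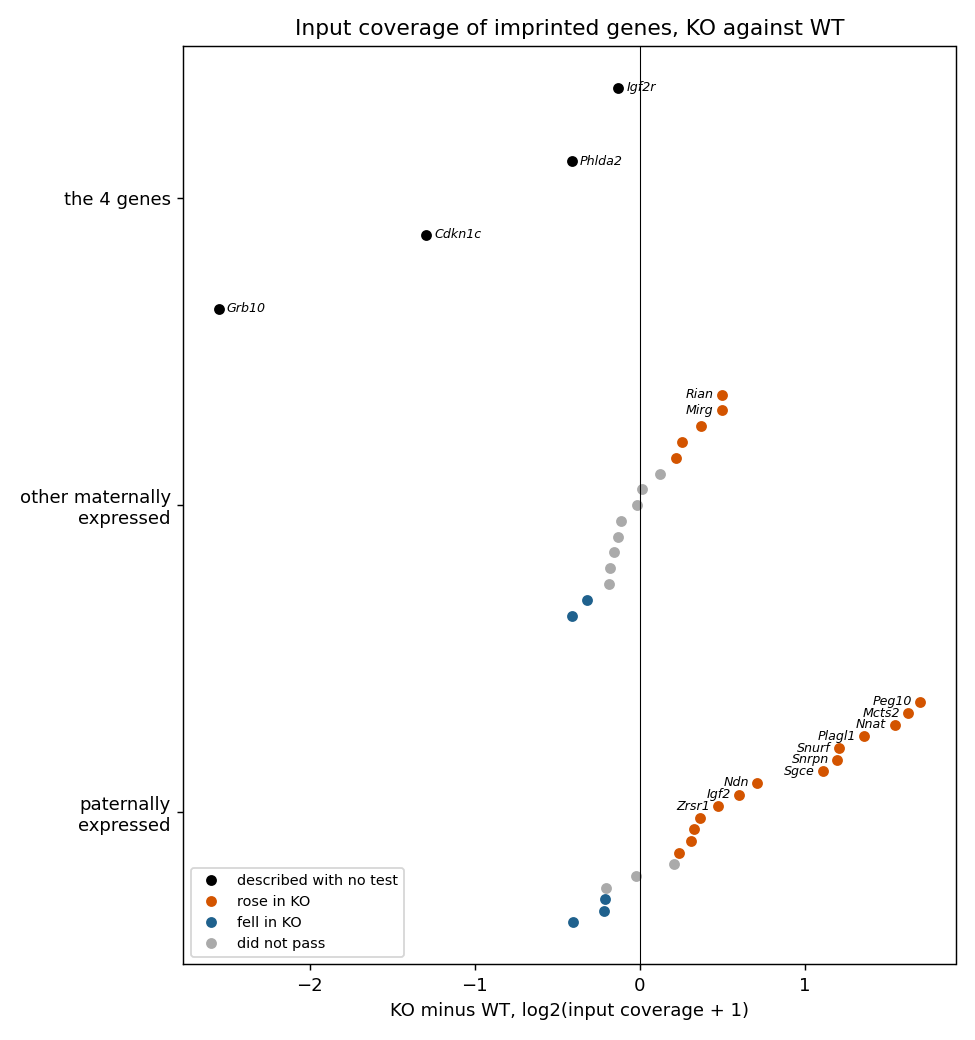
Log2 difference of input coverage, KO minus WT, of Grb10, Cdkn1c, Phlda2 and Igf2r (black, described with no test), of the 15 other maternally expressed and of the 20 paternally expressed imprinted genes measured, with calls at a limma adjusted p under 0.05 in colour. Grb10 lies at -2.55 and Cdkn1c at -1.30, the other maternally expressed genes between -0.41 and 0.50, and 14 of the paternally expressed genes are called higher, up to 1.70 for Peg10.

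The partners of Grb10 and Igf2r were followed from receptor to target. The scale for these and the following lists is again 13% risen and 13.6% fallen over all genes tested. Igf2 and Gab1 are counted among the paternally expressed genes as well. Of 17 genes for insulin and IGF ligands, binding proteins and receptors, 9 were measured, of which 4 rose, 0 fell and 5 did not pass (median log2 difference 0.12). Igf2, the ligand that Igf2r removes, had 2.58 and 1.85 in KO, 1.13 and 1.09 in WT and 5.31 in the first input, and rose by 0.60. The binding proteins Igfbp4 and Igfbp3 both rose by 0.52, and Igf2bp2, which binds the Igf2 messenger RNA, by 0.42. Igfbp4 reached the filter's minimum in the KO inputs alone, which fixed its direction in advance. The receptors that Grb10 binds did not pass: Igf1r had 2.46 and 2.03 in KO against 2.07 and 2.16 in WT, and Insr had 1.44 and 1.16 in KO against 1.25 and 1.43 in WT. The groups overlapped for both receptors.

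Of 28 genes that carry the insulin and IGF signal inside the cell, 26 were measured. Of these 1 rose, 5 fell and 20 did not pass (median -0.07), beside 13% risen and 13.6% fallen over all genes tested. Irs2, a receptor substrate, had 1.68 and 1.497 in KO against 0.921 and 1.006 in WT, and rose by 0.40. The adaptor Gab1 fell by 0.41, the transcription factor Foxo3 by 0.38, the kinases Pdpk1 and Mtor by 0.29 and 0.26, and Mlst8, a partner of Mtor, by 0.31. Without WT replicate 1 or WT replicate 2 the count of falls was 2. Nedd4, a ubiquitin ligase that is known to bind Grb10, had 127 and 122 in KO against 119 and 121 in WT and did not pass. Of 16 inhibitors of the pathway, 14 were measured, of which 3 rose, 2 fell and 9 did not pass (median 0.05). Socs2, which damps growth hormone signals, rose by 0.43, Eif4ebp1, a repressor of translation, by 0.40 and Trib3 by 0.24, while the phosphatase Inpp5d fell by 0.35 and Deptor by 0.25. Without WT replicate 2 or KO replicate 2 the count of falls was 1.

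Cdkn1c acts among the inhibitors of cyclin-dependent kinases. Of 20 genes for these inhibitors and their partners, 16 were measured, of which 1 rose, 4 fell and 11 did not pass (median -0.09). Rb1, the retinoblastoma protein that these kinases inactivate, had 2.50 and 2.38 in KO against 4.003 and 4.42 in WT, and fell by 0.60. Ccnd3, a cyclin, fell by 0.46, the inhibitor Cdkn1a by 0.29 and Rbl1, a relative of Rb1, by 0.24, and the kinase Cdk6 rose by 0.30. The rise was lost without WT replicate 1 or KO replicate 1, and 2 falls were called without WT replicate 1. Of the close relatives of the 4 genes, 7 were listed and 6 measured. Phlda1 (log2 0.45) and Phlda3 (0.30) rose, whereas their relative Phlda2 was lower. Cdkn1a fell, and Cdkn1b, with 12.1 and 12.5 in KO against 12.8 and 12.9 in WT, did not pass. Grb7, with 7.55 and 6.84 in KO against 7.88 and 8.66 in WT, and M6pr, the smaller mannose 6-phosphate receptor, with 30.7 and 30.8 in KO against 28.8 and 31.6 in WT, did not pass either.

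Igf2r also sorts lysosomal enzymes that carry mannose 6-phosphate. Of 20 genes for this tag, its sorting and its cargo, 19 were measured, of which 1 rose, 4 fell and 14 did not pass (median -0.02). Among those that fell, the proteases Ctsb and Ctsd fell by 0.62 and 0.24, and Psap, which encodes the saposins, by 0.29. Ctsb had 8.27 and 8.99 in KO against 13.7 and 13.9 in WT. Gnptg, a subunit of the enzyme that adds the tag, rose by 0.37, a call lost without WT replicate 1, and without WT replicate 2 the count of falls was 2.

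Among the measured chromosome neighbours of the 4 genes the log2 differences ran from -0.63 (Cobl) to 0.25 (Tssc4). Beside Grb10 on chromosome 11, Cobl, an actin nucleator gene and the adjacent protein-coding gene on one side, had 16.2 and 13.3 in KO, 22.9 and 23.7 in WT and 46.1 in the first input, and fell by 0.63 (SE 0.09, limma adjusted p = 0.00086). The adjacent gene on the other side is Ddc, an amino acid decarboxylase that is also imprinted in some tissues, which had 2.18 and 2.21 in KO against 2.34 and 2.40 in WT and did not pass, nor did Fignl1. Around Cdkn1c and Phlda2 on chromosome 7, 6 of 13 neighbours were measured: Ascl2 fell, Tssc4 rose, and Cd81, Nap1l4, Tnfrsf22 and Cars did not pass. Slc22a18, which lies between them, stayed under the filter, with means of 0.60 in KO and 1.07 in WT. Around Igf2r on chromosome 17, 6 of 12 neighbours were measured. Acat2 fell by 0.20, and Mrpl18, Wtap, Tcp1, Map3k4 and Pnldc1 did not pass.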

How the data were processed

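Coverage (a signal per exon window) and a log2 winscore for each IP and input pair, and RPKM per gene for the inputs, were deposited by the authors, per the file headers. Reads were aligned with TopHat 1.1.3 to mm9, per the submitters' processing notes. No source used here gives the window width, gene model, scaling factor or strand handling. The winscore was recomputed from the coverage in 1510223 windows to within 5e-14, which settled the IP and input columns. The deposited RPKM columns labelled KO input correlated with the KO IP tracks (Pearson r of log2(value + 0.5), 0.958 and 0.973 across 11211 genes) more than with their own input tracks (0.689 and 0.704), so gene levels were taken from the input coverage.

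Gene levels were compared with limma 3.58.1 in R 4.3.3 (lmFit, eBayes with trend, Benjamini-Hochberg over all genes, threshold 0.05) on log2(mean coverage + 1), keeping genes that reached 1 in 2 or more of the 4 KO and WT inputs. Fold changes on this scale understate those of low genes. A gene that reached 1 in the libraries of 1 group only, as Ascl2, Sox1, Plagl1, Sgce and Igfbp4 did, passed through the group where it was high. Its direction was then fixed by the filter. Region winscores, and log2((IP + 1)/(input + 1)) centred on the library median of low-scoring windows (under 1 in the first IP, gene mean of 5 or more), were fitted likewise. The fits were tested on simulated data. Coverage steps (tolerance 0.001) gave relative depth, and read numbers were not derived. Replicate deviations correlated at -0.027 (input) and 0.025 (winscore), so replicate numbers were not treated as pairs.

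The 4 genes, the gene lists and the regions' thresholds were chosen with earlier results of these data known. Named genes were the 4, Mettl3, up to 6 per list past the test by p and up to 3 others by level, all measured neighbours and relatives, and the 3 genes most alike per gene. One gene that this rule names is not reported here. Adjacent genes and start-site sequences came from RefSeq tables of GRCm38.p6, which matched 3 of the 4 genes by symbol. The alternatives were other filters, pseudocounts, scalings and summaries, the RPKM columns, windows outside regions, a replicate block, other region thresholds and each library left out. Python 3.11.15, numpy 2.4.6, pandas 2.3.3 and matplotlib 3.10.9 were used.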

Additional observations from a re-analysis of the deposited data

How the results depend on the processing

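The signs for Grb10, Cdkn1c and Phlda2 stayed negative under every alternative run, with log2 differences of -2.71 to -2.05, -1.66 to -0.68 and -1.25 to -0.33. That of Igf2r was reversed, at 0.16, with the deposited RPKM columns, and ran from -0.18 to -0.08 under the other settings. The counts of genes that rose and fell were 372 and 390 with no filter, 549 and 683 with the median over windows and 5011 and 2954 with the RPKM columns, 930 fell with a minimum of 5, and leaving out a library gave 759 to 1455 and 822 to 1689. Other maternally expressed genes that rose and fell numbered 1 and 0 with no filter or the median over windows, 0 fell with a minimum of 5, 1 fell outside regions, and leaving out a library gave 3 to 5 and 0 to 3. Paternally expressed genes that rose numbered 8 with no filter and 6 with a minimum of 5, 1 fell with no filter or the median over windows, and leaving out a library gave 12 to 14 and 1 to 2. A minimum of 5 and no filter also change which genes are tested. For the other changes, those with the RPKM columns included, the cause was not tested. The RPKM columns labelled KO input correlated more with the KO IP tracks than with the KO input tracks, as given above. That setting therefore does not stand for input coverage alone.

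The replicate numbers share only a number by the correlation of deviations, and a fit with the replicate block called 65 regions by winscore and 0 by ratio. Leaving out a library gave 0 to 1321 region calls by winscore and 0 to 2318 by ratio. The counts above 0 in these ranges came only from fits with a KO library left out. Such a fit holds 1 KO library and measures no spread in KO, so these counts are not read as changed regions. The winscore difference of the Grb10 region ran from -0.37 to 0.087 and that of Igf2r from -0.88 to 0.058 when a library was left out. With a winscore threshold of 1, Grb10 held 4 regions, Cdkn1c 2, Phlda2 1 and Igf2r 6, and with 3 they held 1, 0, 0 and 1. IP depth limits what can be said of windows at 0 in KO.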

Other observations

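The deposited RPKM table gave, in the columns labelled as inputs, 12.9 and 5.31 for Grb10 in KO, 46.8 and 48.3 in WT and 78.6 in the first library. Cdkn1c had 0.888 and 2.18 RPKM in KO, 5.89 and 6.65 in WT and 12.2 in the first library. Phlda2 had 18.9 and 23.6 RPKM in KO, 50.4 and 52.8 in WT and 90.1 in the first library. Igf2r had 8.49 and 8.79 RPKM in KO, 7.78 and 7.46 in WT and 15.9 in the first library, with the KO values above the WT values. The KO replicates of Grb10 differ in RPKM in the order of their IP coverage, 8.17 and 4.38, while their input coverage is 6.38 and 6.19. Sox1, an early neural transcription factor, was the only measured one of the 11 lineage markers and fell by 0.55 in KO. It had 0.539 and 0.365 in KO against 1.22 and 1.03 in WT. It reached the filter's minimum in the WT inputs alone, which fixed its direction in advance.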
